A study of Bos taurus with 28 samples.

Results

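The genes described here are those whose mRNA in the muscle of previously restricted steers was higher after feed was restored while the mean of control steers moved little. They number 134 of the 24616 genes in the count tables. The members were chosen by their measured change from day 99 to day 131, in the same 24 samples that are described below, so these changes are a description and carry no test. The study sampled muscle by biopsy on both days in 12 steers, 6 per diet, a cross of Aberdeen Angus x Holstein Friesian. Control steers had received a high energy diet up to day 99, with concentrates to appetite and 7 kg of grass silage a day. Restricted steers had received grass silage to appetite and 0.5 kg of concentrate a day over the same time. From day 99 every steer was given the same total mixed ration, 80 parts grass silage to 20 parts concentrate, and the day 131 biopsy followed 32 days on it. The control steers therefore also changed ration between the biopsies. Sample totals ran from 3342314 to 24376288 counts, the highest summed over 3 libraries of a sample. The labels give neither the muscle nor the age of the steers.

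Realimentation is the return of full feed after a period of shortage, and the fast gain that often follows in cattle is called compensatory growth. During energy shortage muscle lowers protein synthesis and fat storage and draws more on stored fuel and on its own protein. Refeeding raises insulin and nutrient supply, and muscle fibres turn towards synthesis of protein, glycogen and lipid. A biopsy also holds fat cells, connective tissue cells, vessels and blood. In bulk RNA a change in the number of such cells and a change in the RNA of each cell cannot be told apart.

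The tables name genes by Ensembl identifier alone, and 0 of the 24616 identifiers, members included, could be matched to a symbol in the reference table. The function of the members is for this reason not described. The pathway lists and the markers of muscle, fat and other cell types could not be applied, and the labelled tissue was not checked against markers. Of the 134 members, 2 are given by identifier, the member with the largest change and the most abundant member, and the others are described by their counts and ranges.

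Values are counts divided by median-of-ratios size factors, which put the samples on a common scale, and changes are differences of log2(normalised count + 1). A mean normalised count of at least 20 over the 24 samples was met by 9267 genes. Of these, 661 had a higher second value in all 6 restricted steers, and 291 of the 661 had a mean change of at least 0.8. The control mean change was above 0.4 in 153 of the 291, below -0.4 in 3 and between these limits in 135. One of the 135, on a list of 19 identifiers that the choice set aside, was left out. The control limit thus divided the 291 genes near the middle of their control changes. Just inside it lay members at 0.398 and 0.399 and just outside it genes at 0.4001 and 0.4036. At the lower control limit members at -0.35 and -0.37 were inside and genes at -0.56 and -0.88 outside. For the restricted change, 0.808 and 0.812 were inside and 0.797 and 0.799 outside. For the mean count, 20.5 and 20.7 were inside and 19.6 and 19.7 outside. A further 101 genes met every condition except that 5 of 6 restricted steers were higher. The number of members rested on single steers. Without restricted steer 6 the same conditions gave 373 genes, 133 of the 134 among them. They gave 224 without control steer 3, 85 without control steer 6 and 77 without control steer 5.

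**Figure D1:**
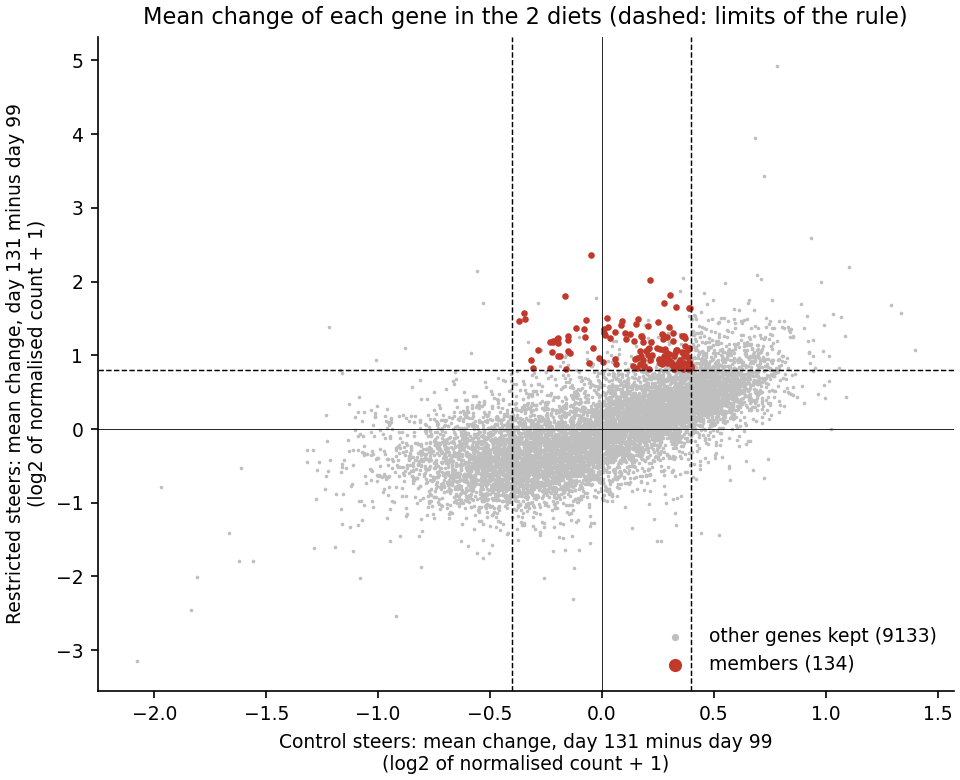
Mean change from day 99 to day 131 in control steers (x axis) and restricted steers (y axis), both on the log2(normalised count + 1) scale, for the 9267 genes kept. The 134 members (red) fill the box between the dashed limits of -0.4 and 0.4 above the dashed line at 0.8, and lie more densely towards its right edge.

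The member with the largest change was ENSBTAG00000011934. In restricted steers its normalised count had a lowest value of 5.39, a median of 10.6 and a highest of 17.1 at day 99. At day 131 these values were 18.8, 53.9 and 124. The 2 restricted groups did not overlap. In control steers the lowest, median and highest counts were 16.1, 30.6 and 751 at day 99. At day 131 they were 14.2, 47.7 and 105. The control groups overlapped, and the 751 of control steer 6 at day 99 stood far above the other 5 control samples of that day. The change in restricted steers was 2.36 ± 0.87 (SD, n = 6), a 5.14-fold difference, and ran from 1.38 to 3.34 among the 6. In control steers it was -0.05 ± 2.09 (SD, n = 6), with 4 of 6 higher at day 131 and a change of -4.07 in steer 6. Without control steer 6 the control mean was 0.76, which lies above the limit of 0.4. Without that steer the gene would thus not have met the control condition. Its mean in restricted steers was 2.14 below that of controls at day 99 on the log2 scale, or 1.34 below without control steer 6, and 0.27 above it at day 131.

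The most abundant member was ENSBTAG00000025210. Its lowest, median and highest normalised counts in restricted steers were 2503, 4748 and 9424 at day 99. They were 8026, 12088 and 14762 at day 131. These groups overlapped in their range, although each steer was higher at its own second biopsy. In control steers the counts were 3798, 7506 and 22569 at day 99 and 3852, 10021 and 13042 at day 131, so the control samples of each day overlapped both restricted groups. In CPM, which scales counts to a common library size (here with TMM factors), the restricted mean was 682 ± 376 before realimentation and 1487 ± 360 after it (SD, n = 6). The log2 change was 1.3 ± 0.74 in restricted steers, a 2.46-fold difference, from 0.19 in steer 6 to 2.35 in steer 5. In control steers it was 0.01 ± 0.72 (SD, n = 6), from -0.86 in steer 6 to 1.24 in steer 3. The near-zero control mean of this gene averaged 0.02, 0.01 and 0.18 in steers 1, 2 and 4 with larger changes in opposite directions. These were the rise in steer 3 and the falls in steers 5 (-0.55) and 6. Restricted steers were 0.79 below controls at day 99 and 0.50 above them at day 131.

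**Figure D2:**
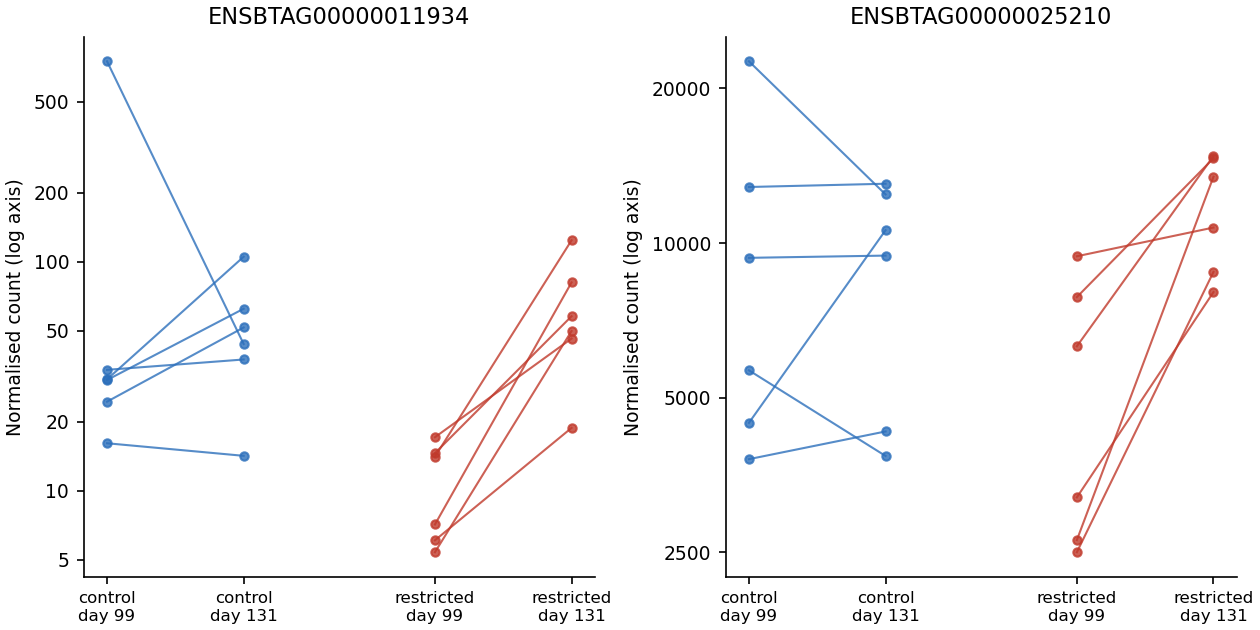
Normalised count (log axis) of the member with the largest change (left) and of the most abundant member (right) in each of the 24 samples, with a line joining the 2 biopsies of a steer. All 6 restricted lines (red) run upward in both panels, while control lines (blue) run both ways and include 1 sample at 751 in the left panel.

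The members covered a wide range of abundance. Mean normalised counts ran from 20.5 to 8944 with a median of 84.7, against 158 over the 9267 genes kept. Between 20 and 50 there were 39 members, from 50 to 200 there were 54, from 200 to 1000 there were 33, and 8 lay above 1000. Of these 8, 4 were above 5000. Every member was counted in every sample, with at least 2 counts, so no fold rests on a 0. Gene lengths were not available, and levels are not compared between genes per length.

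The mean change in restricted steers ran from 0.81 to 2.36 over the members, with a median of 1.06, a 2.09-fold difference. The median over all genes kept was 0.00. In 79 the mean change was at least 1, in 9 at least 1.5 and in 2 at least 2. The 4 most abundant members changed by 1.3, 1.22, 1.05 and 1.27. Of these 4, the second had the narrowest spread in control steers, with a control mean of -0.20 ± 0.45 (SD, n = 6). The third and the fourth had control means of 0.37 ± 1.03 and 0.36 ± 1.15, close to the control limit. Abundant members thus included both kinds of control behaviour.

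Restricted steers differed in how far the members moved. The median change over the 134 members was 1.70 in steer 5, 1.4 in steer 2, 1.12 in steer 3, 0.98 in steer 1, 0.76 in steer 4 and 0.41 in steer 6. Steer 5 held the largest of the 6 changes for 60 members and steer 2 for 43, while steer 6 held the smallest for 76. In 27 members the smallest of the 6 changes was under 0.1, and over all members its median was 0.25. The median over all genes kept was between -0.03 and 0.14 in these 6 steers.

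Control steers moved in both directions, and the label of a change seen only in restricted steers did not hold steer by steer. The median change over the members was 1.36 in control steer 3, above that of 4 of the 6 restricted steers. It was 0.43 in steer 1, 0.23 in steer 4, 0.07 in steer 2, -0.34 in steer 6 and -0.53 in steer 5. In control steer 3, 127 of the 134 members were higher at day 131, and in steers 5 and 6 only 25 each were. The control mean change had a median of 0.21 over the members, and it was above 0 in 104 of them. That median was -0.03 without control steer 3, 0.33 without steer 5 and 0.32 without steer 6. No member kept all 6 control changes within 0.4 of 0, 2 kept them within 0.5 and 7 within 0.8. In 118 members at least 1 control steer was higher at day 131 by 0.8 or more, and in 67 of the 134 another control steer was also lower by 0.8 or more. The SD of the 6 control changes exceeded that of the 6 restricted changes in 98 of 134 members, or 73.1%, against 70.5% of all genes kept. The 6 restricted changes all lay above the 6 control changes in 2 members, where 0.0863% of the genes kept did so. The conditions fix part of that count, and nothing is read from it.

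**Figure D3:**
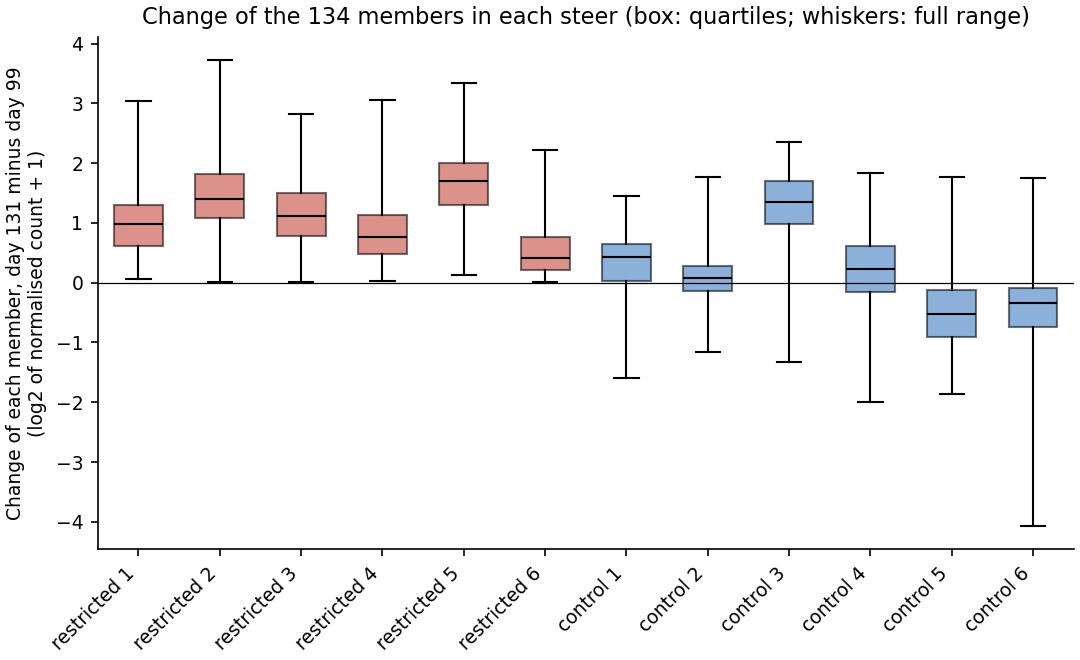
Change from day 99 to day 131 of the 134 members in each steer (y axis, log2 of normalised count + 1), with boxes from the first to the last quartile, a line at the median and whiskers over the full range. Restricted steers (red) have medians from 0.41 to 1.70, and control steers (blue) from -0.53 in steer 5 to 1.36 in steer 3.

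The narrowest control behaviour was seen in members of low and middle abundance, chosen here after their values were seen. The member with the smallest control excursion had a mean normalised count of 22.6. Its control changes ran from -0.16 to 0.45 and its restricted changes from 0.25 to 1.79. In the next, at a mean count of 57.9, control changes ran from -0.34 to 0.46 and restricted changes from 0.37 to 1.59. The third, at 249.9, had control changes from -0.35 to 0.58 and restricted changes from 0.52 to 1.66. In all 3 the smallest restricted change was below the largest control change.

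The group means placed the restricted steers on both sides of the controls. In 133 of 134 members the restricted mean was below the control mean at day 99, where 47.9% of the genes kept were. In 129 it was above the control mean at day 131, where 54.1% of the genes kept were. The median difference was -0.49 at day 99 and 0.37 at day 131, against 0.02 at both days over all genes kept. In 85 members the restricted steers were further below controls at day 99 than above them at day 131, and in 49 the reverse held. At day 99, 32 members were at least 0.8 below controls, and 21 of the 32 were within 0.4 of controls at day 131. At day 131, 10 members were at least 0.8 above controls, and 6 of the 10 had been within 0.4 of controls at day 99. The order restricted day 99, control day 99, control day 131, restricted day 131, from low to high, held in 100 members. It held in 12.8% of the genes kept. In 25 other members the same ends held with the 2 control groups exchanged, where 1.63% of the genes kept did so. Since the change is the sum of these differences and the control change, choosing genes on the change also selects such an order.

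**Figure D4:**
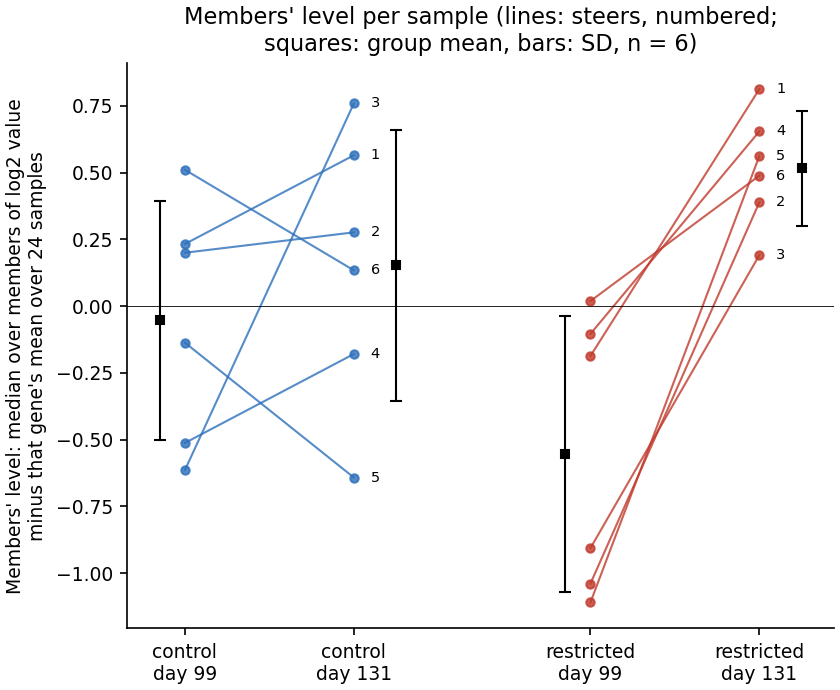
Level of the members in each sample (y axis: the median over the 134 members of the log2 value minus that gene's mean over the 24 samples), with a line for each numbered steer, squares for group means and bars for the SD (n = 6). Restricted steers 2, 3 and 5 start lowest at day 99, and the 6 restricted samples of day 131 lie closer together than the other groups.

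The samples were summarised by the median over members of each gene's log2 value relative to its mean over the 24 samples. In restricted steers this level averaged -0.55 ± 0.52 before realimentation and 0.52 ± 0.22 after it (SD, n = 6). It was -0.05 ± 0.45 and 0.15 ± 0.51 in control steers at the same days. Restricted steers 5, 2 and 3 were at -1.11, -1.04 and -0.91 at day 99, below every control sample, while restricted steers 1, 4 and 6 were at -0.19, -0.10 and 0.02, inside the control range. At day 131 the restricted samples ran from 0.19 to 0.81, within the control range of -0.64 to 0.76 except for restricted steer 1. The larger changes of steers 2, 3 and 5 thus went with lower starting levels, and both measures contain the same day 99 samples. As a share of all counts, the members made up 0.35% to 0.632% of the restricted day 99 samples and 0.685% to 1.05% of the restricted day 131 samples. In control steers the share was 0.50% to 1.14% at day 99 and 0.55% to 0.86% at day 131.

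Values within the restricted day 131 group varied less between steers. The SD of the log2 value within a group had a median over members of 0.43 there, 0.64 in the restricted day 99 group, and 0.61 and 0.66 in control steers at day 99 and day 131. Over all genes kept the same medians were 0.41, 0.56, 0.53 and 0.63. The narrow spread at day 131 was therefore shared with the genes at large.

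All 134 members were among the 11288 genes tested with edgeR's quasi-likelihood test over the whole table. The choice used the changes of both diets, so the counts of calls are set beside the share of all genes and nothing is read from them. Between the days in restricted steers, 4 of 134 members were called higher at an adjusted p under 0.05, where 0.275% of the genes tested were. At an unadjusted p under 0.05 the count was 128, where 9.15% of all genes were. With the steer as a replicate block, which uses the pairing of the biopsies, 14 members were called, where 0.408% of all genes were. DESeq2 called 40, where it called 1.46% of all genes. The number of edgeR calls among the members was 15 without restricted steer 6, where 105 of 11449 genes tested were called higher. Without any other restricted steer it was 0 to 2, where 3 to 16 genes were called higher. It was 11 without control steer 5 (58 of 11245 genes) and 9 without control steer 6 (36 of 11483 genes). Of the 31 genes that edgeR called higher, 4 were members, 16 had a mean count under 20 and 11 had a control change above 0.4.

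In control steers edgeR called 0 members higher between the days (0% of all genes at an adjusted p under 0.05), and also 0 at an unadjusted p under 0.05, where 1.88% of all genes were. DESeq2 and the fit with the replicate block called 0 there too. The diet by day interaction tests whether the change of a gene differs between the diets. EdgeR called 0 members (0% of all genes), the smallest adjusted p was 1.00, and 51 members had a larger change in restricted steers at an unadjusted p under 0.05, where 1.82% of all genes did. DESeq2 called 0 members, where 0.0177% of all genes were called, and the replicate block called 0 (0% of all genes). A difference between the diets in the change of any single member was thus not shown by these tests. Between the diets at day 99 edgeR called 0 members lower in restricted steers (0% of all genes), with a smallest adjusted p of 0.0969. At an unadjusted p under 0.05 the count was 41, where 2.84% of all genes were. Without control steer 4 edgeR called 1 member, where 4 of 11395 genes tested were called lower. DESeq2 called 2, where it called 0.124% of all genes lower. At day 131 edgeR called 0 members higher (0% of all genes), 12 at an unadjusted p under 0.05 where 0.877% of all genes were, and DESeq2 called 0, where 0.00887% of all genes were.

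Most members had overlapping groups. All 6 restricted samples of day 131 lay above all 6 of day 99 in 27 of 134 members, where 0.982% of the genes kept did so. All 6 control samples of day 99 lay above all 6 restricted samples in 1 member, where 0.216% of the genes kept did so. At day 131 the 6 restricted samples all lay above the 6 control samples in 2 members, where 0.0324% did so. The choice used these samples, and the shares are given for scale only.

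The level of the members moved with the composition of the libraries. TMM factors correct for libraries in which a few genes take a larger or smaller part of the counts. The 3 highest, 1.69 in control steer 3 at day 99, 1.59 in control steer 5 at day 131 and 1.37 in restricted steer 5 at day 99, went with member levels of -0.61, -0.64 and -1.11. The restricted day 131 samples had factors from 0.786 to 0.993, and the restricted day 99 samples from 0.809 to 1.37. Over the 24 samples, which share steers and include the groups the members were chosen on, Pearson's r between factor and level was -0.677, given as a description. The first principal component of the 9267 genes held 53.8% of the variance, and 134 of 134 members had a loading on its negative side, against 53.2% of all genes kept. That component contains the group differences. On the first component of the deviations from group means, which leaves the group differences out, 128 of 134 members had a negative loading, against 53.7% of all genes kept. The 153 genes with a control change above 0.4 lay on the same side in 153 of 153 on the first component and in 152 on the within-group component. With the values adjusted for this within-group component, the median change of the same 134 members was 0.72 in restricted steers and -0.12 in control steers, and 40 of the 134 still met the conditions. Without the 3 steers that hold the samples with the highest factors, the median changes were 0.95 over 5 restricted steers and 0.10 over 4 control steers. What part library composition had in the changes was not tested.

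**Figure D5:**
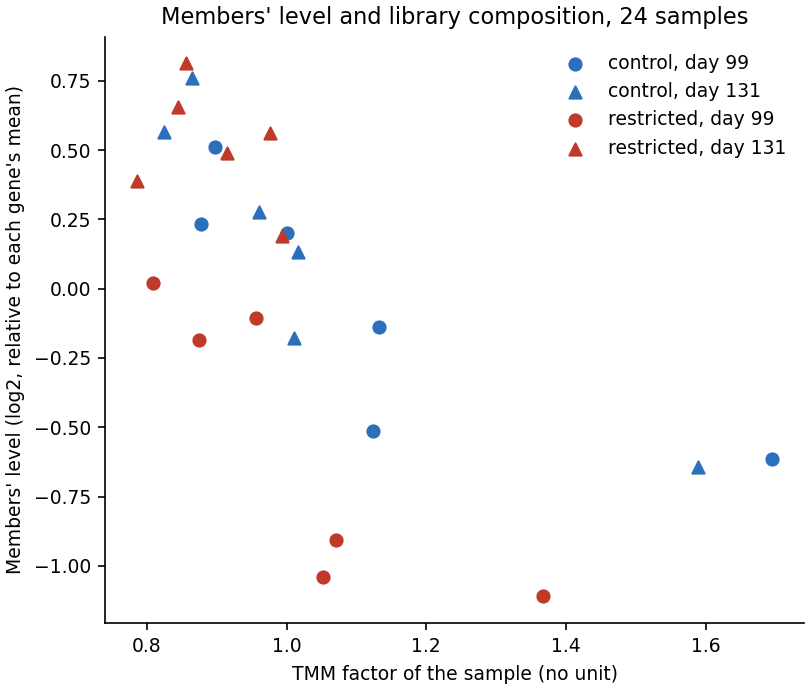
Level of the members (y axis, log2 relative to each gene's mean) against the TMM factor of the sample (x axis), for the 24 samples by diet (colour) and day (shape). The samples with the 3 highest factors, at 1.37 to 1.69, lie at -0.61 or lower, and the restricted samples of day 131 lie at factors below 1 and levels from 0.19 to 0.81.

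The members also varied together between steers of a group. Whether the choice by one-sided change sets this was not tested. The correlation of deviations from group means had a median of 0.48 over the 8911 pairs of members, with 5% of pairs below -0.10 and 5% above 0.81. Over all pairs of the genes kept the median was 0.00, with 5% below -0.77 and 5% above 0.81. Over pairs of the 153 genes with a control change above 0.4 it was higher, at 0.67, so this covariation was not particular to the members. These correlations are over 24 samples that share steers, depth and composition, and are given as a description. The members themselves define their median, and no share of all genes kept is set beside the next counts, so they are not read as a trait of the members. In 111 members the correlation with the median of the members was at least 0.5, and in 13 it was under 0.3. These 13 had a median change of 1.03 in restricted and 0.04 in control steers, with a median SD of the control changes of 0.63, against 0.84 over all members. With the 153 genes that were also higher in control steers, members correlated at a median of 0.54, and with the genes that were lower in restricted steers only, at -0.33.

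Depth and run differed between the restricted groups. Totals of the 6 restricted samples ran from 4632566 to 24376288 counts at day 99, and from 4023531 to 7657350 at day 131. The 24376288 of restricted steer 2 was summed over 3 libraries, and the next highest total of that group was 12154066. With each sample thinned to the smallest total, the median change of the same members was 1.03 in restricted and 0.21 in control steers. The libraries came from 4 sequencing runs, as dated in the deposited names. Samples with repeat libraries were assigned the run of their first library. Member level in restricted steers was higher at day 131 by 0.94 in the second run, 1.48 in the third and 0.73 in the fourth. Each value rests on 1 or 2 samples a day, and the first run held no restricted sample of day 131. Under this assignment no steer had both biopsies in the same run. These differences therefore compare different steers, and the paired change of every steer also crosses runs. In control steers the difference, day 131 minus day 99, was 0.04, 0.91, 0.72 and -0.92 in the 4 runs, again between different steers. Run and steer cannot be told apart in these values.

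Of the 24 samples, 3 had repeat libraries. Between the libraries of a sample, the median absolute difference over the members was 0.0995 to 0.137 on the log2 scale, against 0.0663 to 0.0896 over all genes kept. These differences leave out the variation between biopsies and between steers. In the 5 pairs of libraries, between 1 and 8 members differed by 0.8 or more. Restricted steer 2 was measured with 3 libraries at day 99. Against each in turn the median change of the members was 1.42, 1.35 and 1.41, with 134, 133 and 134 members higher.

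The same conditions turned to other directions give the scale of the set. Mirrored to genes lower in 6 of 6 restricted steers by at least 0.8, with the control mean within 0.4, they gave 72 genes. With the diets exchanged they gave 0 genes higher and 2 lower in control steers only. These counts depend both on the agreement of 6 steers and on the size of the mean change, and the part of each was not tested. In control steers 54 genes were higher in 6 of 6 and 76 lower, against 661 and 358 in restricted steers. The 153 genes beyond the upper control limit met the same restricted conditions. In control steer 3 their median change was 1.96 and in control steer 5 it was -0.70, so the same 2 control steers stood at the ends in both sets.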

How the data were processed

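Poly(A) RNA of each biopsy was sequenced from both ends. The deposited values are raw read counts per Ensembl gene, in 28 libraries. Per the submitters' processing notes, the authors used CASAVA version 1.4, Bowtie, SAMtools and HTSeq with genome build UMD3.1. Neither annotation nor strand setting is given in the labels used here. Overlapping genes and near-identical copies may share reads.

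The 7 technical libraries of 3 samples were summed, which left 24 samples. The members, lists and tests were chosen with earlier results of these data known. Members were found with median-of-ratios size factors in Python 3.11.15 (pandas 2.3.3), a pseudocount of 1, a mean count of at least 20, a mean restricted change of at least 0.8 in 6 of 6 steers and a control mean change within 0.4. The rule for named genes takes the largest changes and the highest levels, held to 2 identifiers without symbols.

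All genes passing filterByExpr (minimum count 10) were fitted in edgeR 4.0.16 (R 4.3.3) with TMM, 4 groups together, a quasi-likelihood test and Benjamini-Hochberg adjustment at 0.05. DESeq2 1.42.0, other scalings, filters and pseudocounts, run, and leaving out each steer were alternatives. The labels identify the steer behind both biopsies, so the biopsies are paired. After group means were subtracted, both biopsies of a steer correlated over genes at a median r of 0.156 (-0.636 to 0.598), over 0.1 in 8 of 12 steers. P-values of the main edgeR fit and of DESeq2 measure the spread between steers within a group and do not use the pairing. Only the fit with the steer as a replicate block uses it. The scripts were tested on simulated data. The gene lists were not run for lack of symbols.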

Additional observations from a re-analysis of the deposited data

Results flagged for a closer look

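Of 34 groups of 6 values examined, 4 held a sample set apart from the other 5 by most of the group's range. Chance sets apart about 5% of independent groups, but these groups share samples and include values that the choice used. The 4 are therefore listed only, and nothing is read from their number. ENSBTAG00000011934 had a normalised count of 751 in control steer 6 at day 99, and the gap to the next sample was 0.976 of the range. This gene met the control condition only with control steer 6 included. The TMM factor of control steer 3 at day 99 was 1.69485, and that of control steer 5 at day 131 was 1.58899. The day 131 sample of control steer 2, summed over 2 libraries, held 16115476 counts.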

How the results depend on the processing

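The median change of the members in restricted steers was 0.95 to 1.19 over the settings that leave out a steer and 0.72 with the adjustment for the within-group component. The choice of members fixes its sign when a steer is left out. The control median change ran from -0.0285 (without control steer 3) to 0.33 over the settings that leave out a steer and turned to -0.12 with that adjustment. The diet difference of the members ran from -0.61 to -0.40 at day 99 and from 0.23 to 0.50 at day 131 when a steer was left out. The number of members ran from 77 to 373 without a steer. It was 172 with TMM scaling (125 of the 134 among them), 134 with total counts (73 among them), 125 with quantile normalization (95), 137 at equal depth (89) and 102 with the adjustment (40). With total counts the median change of all genes kept was -0.18 in restricted and -0.15 in control steers, and relative to it the members changed by 1.07 and 0.20. Over all genes, the edgeR calls between days in restricted steers numbered 43, 241 with DESeq2, 66 without the 3 samples with a high TMM factor, 62 with the replicate block and 5 to 151 without a steer. With the replicate block the calls between days in control steers and for the interaction were 0, as without it, and the diet differences within a day were not fitted with it. At day 99 there were 0 calls with edgeR, 20 with DESeq2, 2 with median-of-ratios factors and 0 to 6 without a steer. At day 131 there were 0, with 3 by DESeq2 and 0 to 1 without a steer, and for the interaction 0, with 2 by DESeq2 and 0 to 1 without a steer. The cause of these differences was not tested. The adjustment, quantile normalization, equal depth and the omission of samples or steers with a high TMM factor were chosen after seeing the data.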
